A study of Mus musculus with 6 samples.

Results

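The genes of the proteasome were compared between mouse embryonic stem cells (mES) and epiblast stem cells (EpiSC). They were taken by name, as the genes on an Agilent array called Psma to Psmg followed by a number, without the immunoproteasome genes Psmb8, Psmb9 and Psmb10. This gave 41 genes, read by 63 probes, of 28786 names on the array. Of these, 15 encode the core particle, 17 the regulatory particle and 9 assembly chaperones, activators, an inhibitor and a gene that only shares the name. There were 3 mES cultures, of the line ESF122 (replicate 1), of ESF175/1 (replicate 2) and of a line given both as ESF58/2 and as ESF58/1 in the labels (replicate 3). The 3 EpiSC cultures came from 2 lines, EpiSC-5 (replicate 1) and EpiSC-7 at passage 20 (replicate 2) and 25 (replicate 3). All grew on irradiated mouse embryonic fibroblasts in a medium with serum replacement, mES with LIF and EpiSC with FGF2. Embryonic stem cells are derived before implantation, from the blastocyst, whereas EpiSC derive from the epiblast of the implanted embryo. Total RNA was hybridised in 1 colour to 1 array per culture, and the 6 arrays limit the precision.

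The proteasome breaks down proteins that carry ubiquitin chains. Its core particle is a barrel of stacked rings, in which outer rings of alpha subunits (Psma genes) gate the entry and inner rings of beta subunits (Psmb genes) hold the protease sites. The regulatory particle caps the barrel. Its base holds a ring of ATPases (Psmc genes) that unfold substrates, and its lid and the rest of the base, made of Psmd subunits, bind ubiquitin chains and remove them. Chaperones assemble the parts and leave, and other caps (Psme genes) can replace the regulatory particle.

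Values are log2 signals relative to the 75th percentile of the same array, and fold changes are log2 differences, EpiSC minus mES, so that a fold change below 0 means a lower level in EpiSC. A gene with several probes is given by its brightest one, and levels of different genes are not compared. Genes were tested with limma, with p-values adjusted over all 20689 genes measured, and a gene was called at an adjusted p under 0.05. The median signal per array lay between 72.4 and 120, and 66.3% to 75.4% of the probes were well above background. Summed markers matched the labels, those of mES cells lying between 503 and 710 on the mES arrays and between 22.8 and 41.8 on the EpiSC arrays, and those of EpiSC between 12.6 and 60.2 and between 206 and 354. Of 14 fibroblast markers 1 was called, against 26.3% of all genes. Their sum overlapped between the groups (52.8 to 165 in mES, 94.9 to 194 in EpiSC). On mES replicate 3 the mES cell marker Esrrb and the fibroblast marker Col1a2 had no value, so that the sums there (710 and 165) lack them. Proteasome genes are expressed in feeder cells too, and the part of the feeders in the values below was not tested. The arrays lay on 4 slides, each holding 1 group only, so that slide, scan, medium and cell type cannot be told apart. In bulk RNA, fewer cells with a transcript and less of it per cell cannot be told apart either.

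Most proteasome genes differed little between the cell types. Of the 41 genes, 2 fell in EpiSC and 0 rose, a share of 4.88% called by limma, against 26.3% of all genes (11.8% higher and 14.5% lower). An unadjusted p under 0.05, a looser threshold that at least the same 26.3% of all genes reached, was reached by 8 of the 41. The genes that fell were Psma8, an alpha subunit of germ cells, and Psmd5, an assembly chaperone of the regulatory particle. Among the other 39 genes the log2 fold change ran from -0.58 (Psmb3) to 0.63 (Psme2b-ps). A p above the threshold does not show that a gene was unchanged, so the 95% interval of each fold change, unadjusted for the number of genes, was set against a 2-fold change. It lay wholly within 2-fold in either direction for 36 of the 41 genes, against 40.2% of all genes. The exceptions were Psma8, Psmd5, Psmb3, Psmb5 and Psme2b-ps. The standard errors of the proteasome genes had a median of 0.18, against 0.24 for all genes.

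**Figure D1:**
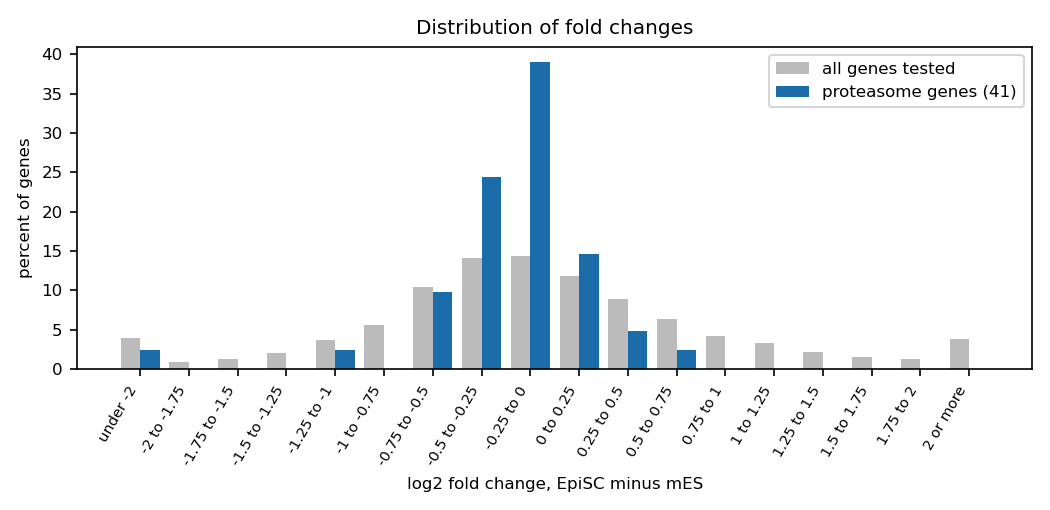
Percent of genes (vertical axis) in each range of the log2 fold change, EpiSC minus mES (horizontal axis), for all 20689 genes tested (grey) and the 41 proteasome genes (blue). The range from -0.25 to 0 held 39% of the proteasome genes and 14.4% of all genes, and 1 proteasome gene, Psma8, lay under -2.

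Psma8 takes the place of the alpha subunit Psma7 in proteasomes of male germ cells. Its log2 signal was 2.80, 3.05 and 2.74 on mES replicates 1 to 3 and -4.71, -7.06 and -7.64 on EpiSC replicates 1 to 3. All 3 mES arrays lay far above all 3 EpiSC arrays. The probe, designed on a cDNA rather than a reference transcript, cleared background in 3 of 3 mES cultures and in 1 of 3 EpiSC cultures, EpiSC-5. By limma the difference was -9.33 ± 0.72 (log2, SE; n = 3 per group; adjusted p = 0.000707). Psma8 entered this test through the mES arrays alone. Its EpiSC-7 values were not well above background, so that the size, the SE and the p-value rest partly on background signal. With the EpiSC-7 arrays set to the lowest signal well above background on them, the mean level of Psma8 was 331-fold lower in EpiSC. This is no strict bound, as that lowest signal is taken over all probes of an array. On the EpiSC-5 array alone, where Psma8 was measured, the level was 190-fold below the mean of the mES arrays. Background correction by normexp, which compresses low signals, gave a log2 fold change of -6.14. The 6 spermatogenic markers were also called lower, where 14.5% of all genes were. Their summed level was 21.8 to 29.4 on the mES arrays and 0.0873 to 0.247 on the EpiSC arrays. Stra8, Sycp3, Ddx4 and Mael were above background on 0 of the 3 EpiSC arrays, and Dmc1 on 1. These markers entered the test through the mES arrays alone, so that their calls could hardly have gone the other way. The remaining marker, Tex101, was above background on all 3 arrays of both groups (log2 fold change -3.06, limma adjusted p = 0.00439).

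Psma7, the subunit that Psma8 replaces, had log2 signals of 6.02, 6.10 and 5.72 in mES and of 5.29, 5.60 and 5.42 in EpiSC. The groups did not overlap, but the decrease of 0.51 ± 0.18 did not pass the threshold (log2 fold change -0.51, adjusted p = 0.0847). The other alpha subunits, Psma1 to Psma6, form the rest of the outer ring. None of them was called by limma, and their fold changes ran from -0.37 (Psma4) through -0.31 (Psma2), -0.27 (Psma6) and -0.10 (Psma5) to 0.00 (Psma1). Psma1 was at 5.19, 5.03 and 4.95 in mES and at 4.89, 5.18 and 5.11 in EpiSC, with a 95% interval of its fold change from -0.40 to 0.40. Psma6 was the only further alpha subunit whose groups did not overlap (4.56 to 4.61 in mES, 4.10 to 4.50 in EpiSC). Psma3 has no value on EpiSC replicate 3, where its spot was marked as an outlier, and its fold change (-0.20) rests on 5 arrays.

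**Figure D2:**
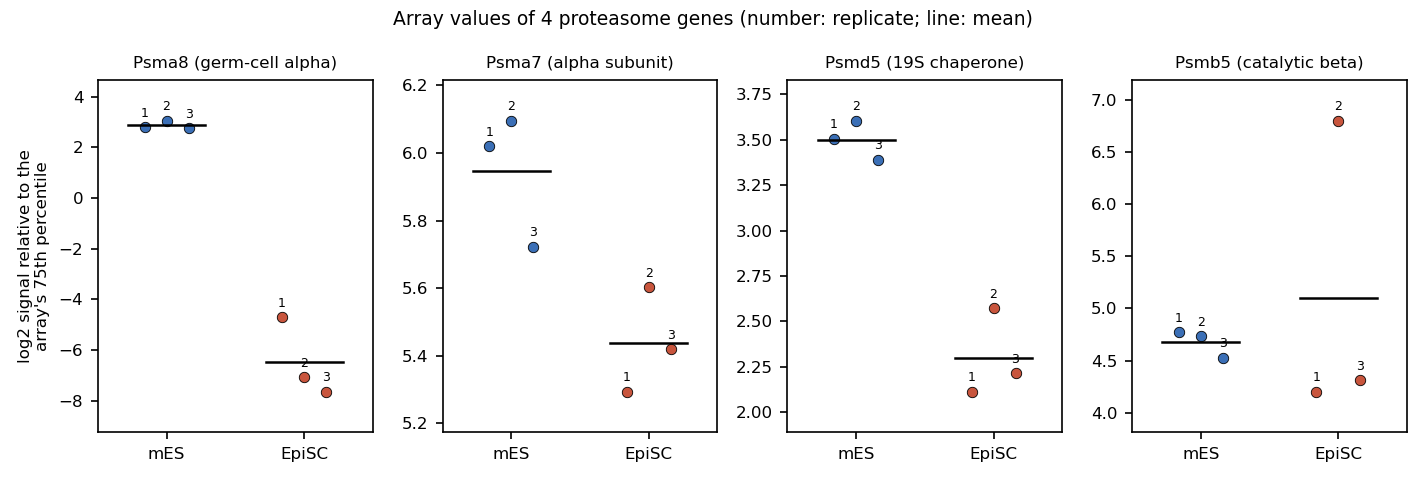
Log2 signal relative to the array's 75th percentile (vertical axes, scaled separately) of Psma8, Psma7, Psmd5 and Psmb5 on the 3 mES arrays (blue) and the 3 EpiSC arrays (red). Each point is 1 array with its replicate number, and the line is the group mean. Psma8 and Psmd5 separate the groups widely, and Psmb5 has 1 high value, 6.80 on EpiSC replicate 2.

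The beta ring carries the proteolytic sites, of which Psmb6 has the caspase-like, Psmb7 the trypsin-like and Psmb5 the chymotrypsin-like activity. Psmb6 had log2 signals of 5.91, 6.24 and 5.71 in mES and of 5.40, 5.72 and 5.43 in EpiSC (log2 fold change -0.44 ± 0.20, adjusted p = 0.155). The highest EpiSC value just overlapped the lowest mES value. Psmb7 was at 3.33, 3.75 and 3.56 in mES and at 3.11, 3.59 and 3.15 in EpiSC (log2 fold change -0.27 ± 0.21, adjusted p = 0.369). Psmb5 was at 4.77, 4.73 and 4.53 in mES and at 4.20, 6.80 and 4.31 in EpiSC. The passage-20 array of line EpiSC-7 stood apart, 5.84-fold above the mean of the other EpiSC arrays, and Psmb5 has 1 probe with 1 spot, so that no second measurement on that array bears on this value. With that array the log2 fold change was 0.43 ± 0.69 (adjusted p = 0.667), and without it the direction turned (log2 fold change -0.42, adjusted p = 0.145).

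The beta subunits without a protease site, Psmb1 to Psmb4, complete the inner ring. Psmb3 had the largest decrease of the beta subunits. Its signals were 6.48, 6.44 and 6.60 in mES and 5.75, 6.16 and 5.87 in EpiSC, with no overlap (log2 fold change -0.58 ± 0.18, adjusted p = 0.053), and its other probe gave -0.55. Psmb4 (-0.47) and Psmb1 (-0.37) were lower without overlap and did not pass. Psmb2 went the other way, from 1.35 to 1.42 in mES to 1.63 to 1.79 in EpiSC, also without overlap (0.31 ± 0.15, adjusted p = 0.172). Over the core particle, 1 of 15 genes was called, against 26.3% of all genes. The median log2 fold change was -0.31, or -0.29 without Psma8, beside -0.11 for all genes. The fold change was below 0 for 12 of the 15, against 56.4% of all genes. With quantile normalization the median was -0.10, beside -0.02 for all genes, so that its size depends on the scaling between arrays. The groups did not overlap for 7 of the 15, against 48.5% of all genes.

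**Figure D3:**
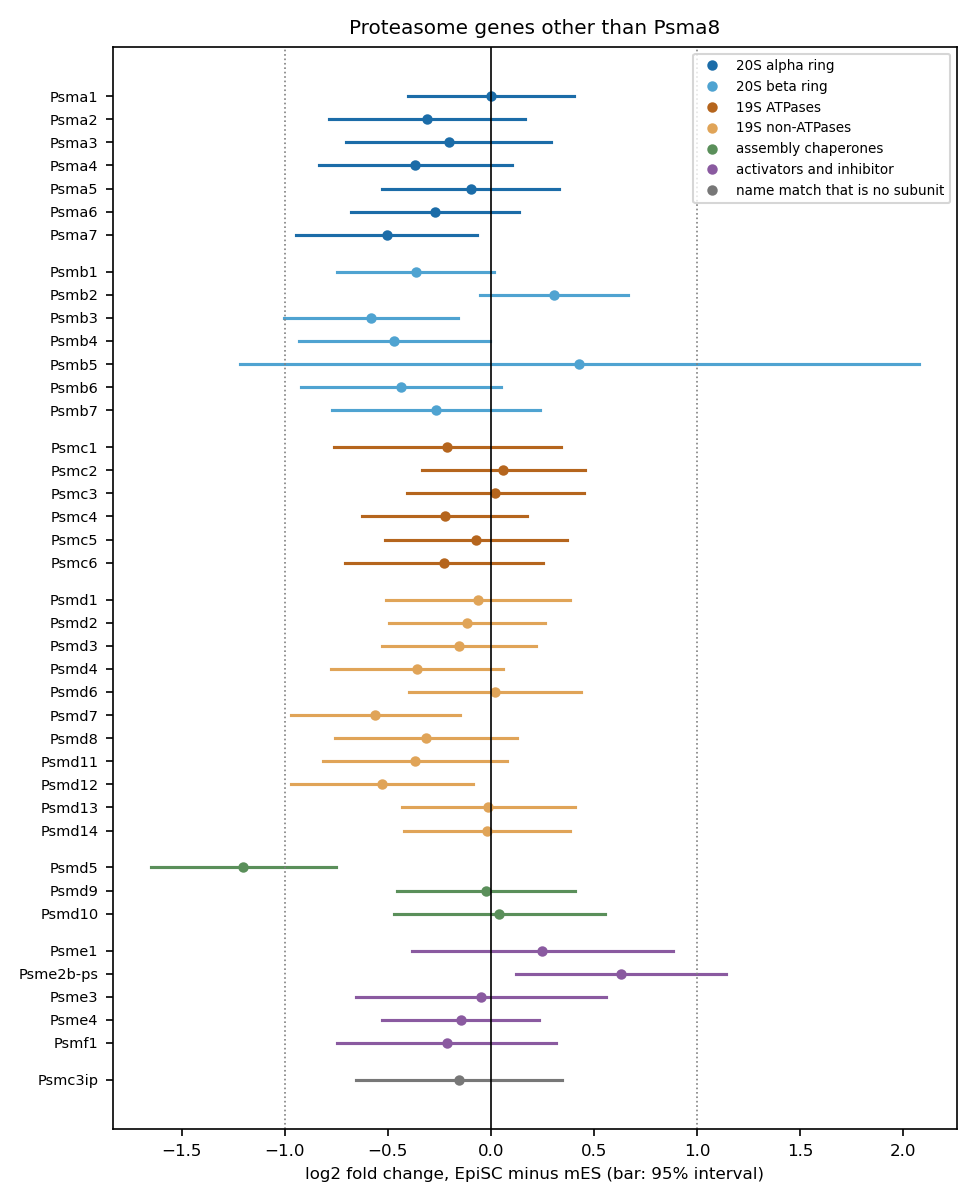
Log2 fold change, EpiSC minus mES (horizontal axis; point), with its 95% interval (bar) for the 40 proteasome genes other than Psma8, coloured by their place in the complex. Dotted lines mark a 2-fold change in either direction, and Psmd5 at -1.20 is the point beyond them.

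No gene of the regulatory particle was called. By limma 0 of 17 passed, against 26.3% of all genes, with 2 at an unadjusted p under 0.05 (Psmd7 and Psmd12). With a mean-variance trend in the fit 2 passed, against 28.8% of all genes. The median log2 fold change was -0.16, beside -0.11 for all genes. Its sign turned with quantile normalization (0.06, all genes -0.02), and it was -0.06 with median scaling (all genes -0.01). The 6 ATPases lay between -0.23 (Psmc6) and 0.06 (Psmc2), and the groups overlapped for each of them. Between them were Psmc4 (-0.23), Psmc1 (-0.21), Psmc5 (-0.07) and Psmc3 (0.02). Psmc2 was at 4.97, 5.20 and 4.86 in mES and at 5.01, 5.13 and 5.07 in EpiSC (adjusted p = 0.807). Psmc6 was at 5.69, 5.73 and 5.49 in mES and at 5.13, 5.69 and 5.41 in EpiSC (adjusted p = 0.424). All 6 intervals excluded a 2-fold change.

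The non-ATPase subunits include the scaffolds of the base (Psmd1 and Psmd2), the ubiquitin receptor Psmd4 and the deubiquitinase Psmd14, which cuts chains off the substrate. The scaffolds had log2 fold changes of -0.06 and -0.12, Psmd14 of -0.02 and Psmd4 of -0.36. Psmd11 had -0.37, Psmd8 -0.32, Psmd3 -0.16 and Psmd13 -0.01. The largest decreases were in the lid. Psmd7, the partner of Psmd14, was at 3.82, 4.09 and 3.70 in mES and at 3.35, 3.29 and 3.28 in EpiSC, with no overlap (log2 fold change -0.56 ± 0.17, adjusted p = 0.054). Another of its 3 probes passed by itself (-0.86 ± 0.19, adjusted p = 0.0222 over all probes, of which 26.1% were called). Psmd12 was at 5.95, 5.79 and 5.48 in mES and at 5.11, 5.28 and 5.25 in EpiSC (-0.53 ± 0.18, adjusted p = 0.0767). The largest value at the other end was 0.02 for Psmd6, at 4.25, 4.29 and 3.93 in mES and 4.08, 4.17 and 4.27 in EpiSC. Of the 11 non-ATPases the groups did not overlap for 5, each lower in EpiSC (Psmd4, Psmd7, Psmd8, Psmd11 and Psmd12), where 28.6% of all genes were lower without overlap.

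Psmd5 was the other gene called. It binds the ATPase Psmc2 during assembly of the base and is absent from the finished proteasome. Its signals were 3.51, 3.61 and 3.39 on mES replicates 1 to 3 and 2.11, 2.57 and 2.22 on EpiSC replicates 1 to 3. The lowest mES array lay well above the highest EpiSC array. The level was 2.30-fold lower in EpiSC (log2 -1.20 ± 0.19, SE; 3 arrays per group; limma adjusted p = 0.00664), and the call held in all 19 alternatives (-1.34 to -1.06). Psmd5 has 1 probe, so that no second probe bears on this change. The other chaperones of the base, Psmd9 (-0.02) and Psmd10 (0.04; 0.59, 1.05 and 0.84 in mES, 0.76, 1.16 and 0.68 in EpiSC), were not called. The chaperones of the core particle are listed under older names and so lie outside the 41 genes. Psmg1 (-0.40), Psmg2 (-0.67, adjusted p = 0.0634) and Psmg3 (-0.42) did not pass either, nor did Pomp, which matures the core particle (-0.27 ± 0.19, adjusted p = 0.319; 0.03 with quantile normalization).

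Activators open the core particle without ATP. Psme1, a subunit of the interferon-inducible activator, did not pass (0.25, adjusted p = 0.504). The probes of its partner are listed under Psme2b-ps, a near-identical copy of Psme2, and may read Psme2 as well, so that the gene is uncertain. They gave 5.50, 5.13 and 5.32 in mES and 5.84, 5.73 and 6.28 in EpiSC, without overlap (0.63 ± 0.21, adjusted p = 0.0704), and 0.69 at the other probe. It passed with quantile normalization (0.93, adjusted p = 0.029) and with normexp (adjusted p = 0.0355). Psme3 (-0.05) and Psme4 (-0.15), activators found in the nucleus, were not called. The inhibitor Psmf1 was at 0.25, 0.16 and 0.16 in mES and at -0.23, -0.25 and 0.40 in EpiSC by its brightest probe, with overlap (-0.22), while its other probes gave 0.30 and 1.31. Psmc3ip, a factor of meiotic recombination that shares only the name, was at -0.16 (adjusted p = 0.598). Of the immunoproteasome subunits, which replace the catalytic ones, Psmb8 (2.69 ± 0.31, adjusted p = 0.00257) and Psmb10 (1.02 ± 0.27, adjusted p = 0.0381) rose, and Psmb9 had -0.62 (adjusted p = 0.245). Thus 2 of the 3 rose, where 11.8% of all genes did. Of 6 interferon response markers 1 was called, higher, against the same 11.8% of all genes. Their summed level was 15.5 to 22.5 in mES and 22.1 to 39.4 in EpiSC. The part of an interferon response in the immunoproteasome values was not tested.

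Of 16 genes with more than 1 measured probe, 9 had probes with fold changes of both signs, such as Psmd4 (-0.36 and 0.09). The probes lay more than 0.5 apart on the log2 scale for 4 of the 16. In Psmc6 a dimmer probe gave 0.59 against -0.23, in Psmd12 a dimmer probe gave 0.45 against -0.53 and -0.43, and in Psmd9 0.75 stood against -0.02. The widest gap was that of Psmf1, whose fold change of 1.31 came from a probe near background. That probe was well above background on 5 of the 6 arrays, with mES signals of -4.21, -4.95 and -5.50. A second Psmd11 probe was above background on 0 of the 6 arrays and was not tested.

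**Figure D4:**
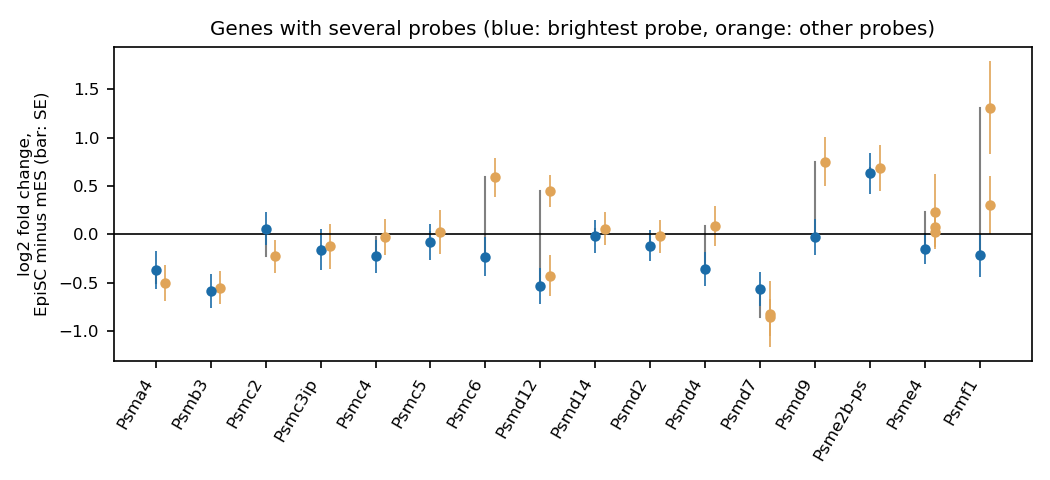
Log2 fold change, EpiSC minus mES, with its standard error (vertical axis) for each probe of the 16 genes with more than 1 measured probe. Blue points are the brightest probes and orange points the others, and the grey line spans the probes of a gene. It is widest in Psmf1, whose highest point is a probe near background.

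The arrays differed in the median level of these genes, and also in that of all genes. Each gene was centred on its mean over the 6 arrays, and the median was taken over the genes of a particle. For the core particle it was 0.13, 0.24 and 0.08 on mES replicates 1 to 3 and -0.33, 0.04 and -0.27 on EpiSC replicates 1 to 3. For the regulatory particle it was 0.08, 0.20 and -0.04 in mES and -0.19, 0.01 and -0.03 in EpiSC. Over all genes tested the median was 0.11, 0.11 and -0.01 in mES and -0.03, 0.01 and -0.13 in EpiSC, near several of these values. The core values of the EpiSC-7 line at passage 20 thus lay nearer to those of mES than the other EpiSC arrays did. The EpiSC-5 array held the lowest value of 26 of the 41 genes, and mES replicate 2 the highest of 22. Such counts were not made over all genes. Markers of primitive and visceral endoderm moved with the EpiSC-5 array, with a summed level of 18.8 there, 2.92 and 6.06 on the EpiSC-7 arrays and 0.603 to 1.03 on the mES arrays. Of 5 such markers tested 3 rose in EpiSC (Gata6, Sox17 and Foxa1), where 11.8% of all genes did. Gata4 (-0.24) and Dab2 (0.62) were not called, with overlap. Each of the 5 had its own highest signal on the EpiSC-5 array, such as Gata6 (3.46) and Sox17 (2.68). Ttr was above background on 0 arrays, and Afp, not tested, on 1 mES and 2 EpiSC arrays. The part of such cells in the values was not tested. Against the mean of the EpiSC-7 arrays, EpiSC-5 was lower for 36 of 38 genes, leaving out Psma8, Psmb5 and Psma3, by a median of 0.21 (log2 difference -0.21). Over all genes it was lower for 10806 of 20664, with a median of -0.02. The EpiSC-5 array was also the brightest, with the median signal of 120 given above. It held the lowest value of 28 of the genes with median scaling, of 23 with normexp and of 8 with quantile normalization, and its core median was -0.37, -0.33 and -0.13 in these settings. Between the passages of EpiSC-7 the median difference, 25 minus 20, was -0.11 over the same 38 genes and -0.15 over all genes. With 1 culture each, these differences have no test.

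**Figure D5:**
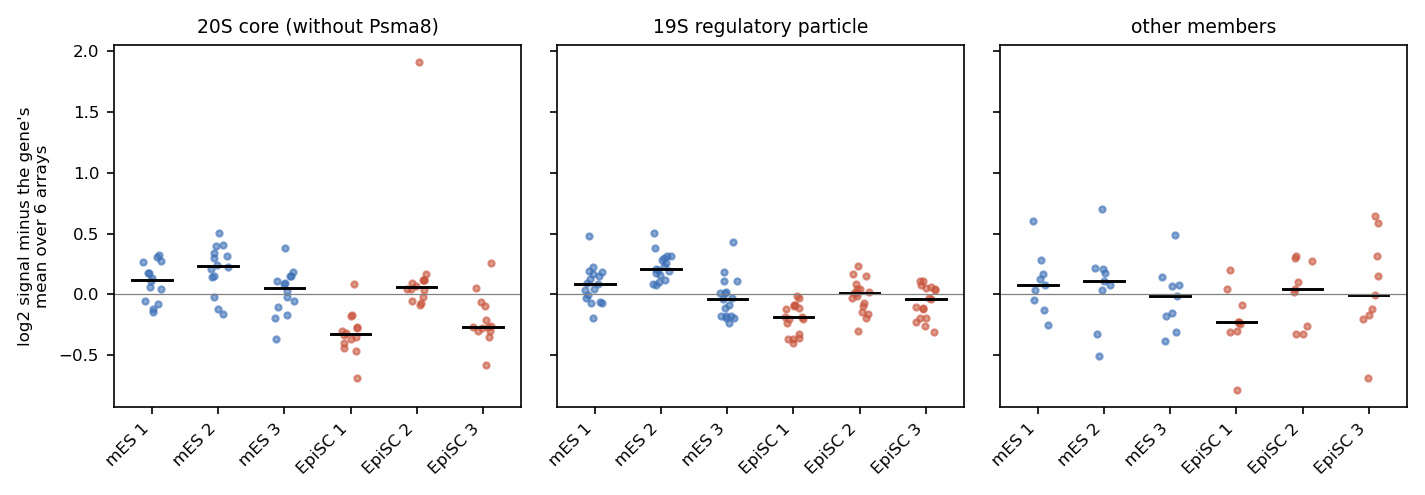
Log2 signal minus the gene's mean over the 6 arrays (vertical axis) on each array, for the genes of the core particle without Psma8, the regulatory particle and the other proteasome genes. Points are genes, blue in mES and red in EpiSC, lines are medians, and the high core point on EpiSC replicate 2 is Psmb5.

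Among regulators of proteasome genes, the transcription factor Nfe2l1, which raises proteasome genes when the proteasome is inhibited, was at 3.89, 3.70 and 3.81 in mES and at 3.52, 3.31 and 3.78 in EpiSC (-0.26 ± 0.18, adjusted p = 0.316). Its relative Nfe2l2, the regulator of the oxidative stress response, fell (3.12 to 3.43 in mES, 1.71 to 2.51 in EpiSC; -1.10 ± 0.25, adjusted p = 0.0223). The small MAF partner Maff rose (1.77 ± 0.44, adjusted p = 0.0301) and the NF-Y subunit Nfyb fell (-0.81 ± 0.20, adjusted p = 0.0273). In all 1 of 11 such regulators rose and 2 fell, a share near the 26.3% called over all genes. Of 12 measured partners of the proteasome outside the name rule, such as the ubiquitin receptor Adrm1 and the deubiquitinase Usp14, 0 were called by limma, beside the same 26.3%, and 1 (Zfand5) had an unadjusted p under 0.05. Among 11 genes of ubiquitin shuttles and the p97 unfoldase, the shuttle Ubqln2 rose (1.52 ± 0.18, adjusted p = 0.00271), as did the unfoldase gene Vcp (0.59 ± 0.15, adjusted p = 0.0301). Faf1 (-0.96 ± 0.17) and Ubqln4 (-0.64 ± 0.17) fell. Thus 2 of the 11 rose and 2 fell, where 11.8% of all genes rose and 14.5% fell. The COP9 signalosome and eIF3, which are built like the lid, had 2 of 22 genes called, Cops7a (-1.03 ± 0.17) and Eif3k (-0.73 ± 0.18), both lower, where 14.5% of all genes fell, and a median of -0.21. Some of these calls were lost under other settings: of 19 alternatives, that of Ubqln4 in 9, Vcp in 8, Psmb10 and Eif3k in 7, Nfe2l2 and Nfyb in 5, Maff in 4 and Faf1 in 1.

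Promoter sequences of 34 of the 41 genes were taken from RefSeq on the build GRCm38.p6, as the 250 bases before the annotated start. They are shown for Psmd5, which changed, and for Psmb3, Psma7 and Psmd12, the subunits with windows that had the lowest fold changes without passing the threshold. They run 5′ to 3′ on the gene's strand, and capitals mark matches on either strand to the searched motifs. Those motifs were TGACNNNGC of NFE2L and MAF factors, CCAAT of NF-Y, GGGCGG of SP1, CCGGAA of ETS factors and the motif of the nuclear respiratory factor. The windows lie at chr2:34870963-34871212 (minus strand), chr11:97703184-97703433 (plus), chr2:180042465-180042714 (minus) and chr11:107479278-107479527 (plus).
Psmd5: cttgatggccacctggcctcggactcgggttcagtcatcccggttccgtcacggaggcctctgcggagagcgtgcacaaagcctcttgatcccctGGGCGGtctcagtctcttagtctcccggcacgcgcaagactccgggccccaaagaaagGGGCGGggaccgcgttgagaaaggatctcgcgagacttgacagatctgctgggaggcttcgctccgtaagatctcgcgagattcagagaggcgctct
Psmb3: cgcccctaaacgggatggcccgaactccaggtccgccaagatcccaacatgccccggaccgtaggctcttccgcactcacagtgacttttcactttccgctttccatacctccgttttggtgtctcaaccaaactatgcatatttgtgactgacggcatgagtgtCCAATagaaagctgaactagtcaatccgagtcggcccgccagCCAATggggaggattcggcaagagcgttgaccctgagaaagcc
Psma7: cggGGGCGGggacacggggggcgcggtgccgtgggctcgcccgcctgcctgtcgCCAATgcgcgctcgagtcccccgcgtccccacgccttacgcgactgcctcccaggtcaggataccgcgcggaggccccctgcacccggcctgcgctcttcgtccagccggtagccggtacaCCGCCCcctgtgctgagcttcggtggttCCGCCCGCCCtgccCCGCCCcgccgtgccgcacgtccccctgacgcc
Psmd12: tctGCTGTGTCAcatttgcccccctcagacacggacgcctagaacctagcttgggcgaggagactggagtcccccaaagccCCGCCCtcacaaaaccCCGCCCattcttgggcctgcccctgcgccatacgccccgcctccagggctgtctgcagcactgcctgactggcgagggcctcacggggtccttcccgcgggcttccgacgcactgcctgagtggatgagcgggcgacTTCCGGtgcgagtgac
The Psmd5 window holds GGGCGG 2 times, from positions -155 and -97, where -1 is the base before the start. The Psmb3 window holds CCAAT from -85 and -43, and the Psma7 window holds CCAAT and 5 matches to GGGCGG, some of which overlap. The Psmd12 window holds all but CCAAT and the nuclear respiratory factor's motif.

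The 34 genes have 36 windows, as Psma6 and Psmc2 have 2 starts each. TGACNNNGC occurred in 5 of the windows (Psmb5, Psmb6, Psmc6, Psmd9 and Psmd12), or 13.9%, against 10.2% of the 32851 windows of all genes. CCAAT occurred in 36.1% against 33.8%, GGGCGG in 52.8% against 32.7% and CCGGAA in 50% against 12%. CCGGAA lay in 11 of 15 windows of the regulatory particle and in 2 of 12 of the core particle, and CCAAT in 4 and in 6. The motif of the nuclear respiratory factor occurred in Psma2 alone. These matches describe the letters in the windows only, and binding was not measured.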

How the data were processed

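The authors deposited scanner output in which a spot has a linear intensity. Agilent Feature Extraction 9.1.3.1 made it, removing spatial and multiplicative trends within an array, per the file headers, and arrays were not scaled to each other. The intensity in the deposited value table differed from it by at most 0.00716 (log2) and was used as an alternative. It held 0 sample columns that were not used. For the probes, a genome build was not given in the sources used here.

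Control spots and spots marked as outliers (12 to 24 per array) were left out, and 0 spots were saturated. Spots of a probe were averaged (41174 probes) and each array's 75th percentile was subtracted from the log2 signal. Probes were named by RefSeq accession on GRCm38.p6 (55.7%) or else by the file's symbol, which may be outdated. A probe entered if well above background on every array of a group, with at most 1 missing value per group, and the brightest probe stood for a gene. All 41 proteasome genes entered. The test was limma (version 3.58.1, R version 4.3.3; lmFit and eBayes, no covariate, two-sided, Benjamini-Hochberg over all genes, threshold 0.05). Errors are limma's standard errors, and p-values rest on the spread of these cultures, 2 of which are EpiSC-7. The pipeline was tested on simulated data. The 331-fold figure for Psma8 takes, per EpiSC array where its probe was not well above background, the lowest signal of any probe that was.

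The genes and lists were chosen with earlier results of these data known. Every proteasome gene is named, and array values are given for those past the threshold, those with the largest change in their subgroup in either direction and the catalytic subunits. Genes of other lists have values where they passed, at most 3 in each direction, besides Nfe2l1, Nfe2l2 and Pomp. Values given outside this rule (such as those of Psma7, Psmd12 and the further probes) were chosen after they were seen. Alternatives covered background correction, scaling, the filter on dim probes, the probe for a gene, the variance model, EpiSC-7 counted once, slide and position, the value table and each array left out. Results for 1 of the gene lists are not reported here.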

Additional observations from a re-analysis of the deposited data

How the results depend on the processing

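Of the genes called, Psmd5 kept its call in 19 of 19 alternatives and Psma8 in 18 of 18 (log2 fold change -10.21 to -6.14, adjusted p up to 0.0136). Psma8 could not be fitted where a probe had to exceed background on every array. It cleared background throughout mES alone, so that its calls could hardly have gone the other way and are no added support. Called core genes numbered 1, but 2 with normexp or no filter, 3 with a mean-variance trend and 6 with slides as a random block. Where a probe had to exceed background on every array, the 1 called core gene was Psmb3 (limma adjusted p = 0.0451) instead of Psma8. Psmb3 passed in 6 of 19 alternatives, the slide block among them. Called genes of the regulatory particle numbered 0, but 1 with normexp, with no filter, with a probe above background on every array, with the mean of a gene's probes or with each probe tested alone, 2 with a trend and 4 with the slide block. Of the other genes 2 instead of 1 were called with normexp, quantile normalization, a trend and the slide block. With 1 array left out these counts ran from 1 to 2 for the core (Psmb3 added without EpiSC replicate 2), from 0 to 1 for the regulatory particle (Psmd12 without mES replicate 3) and from 1 to 1 for the others. The slide block had a negative correlation (-0.68) and called 57% of all genes. As each slide held 1 group, calls gained there are not support.

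The core median moved to -0.10 and the regulatory median to 0.058 with quantile normalization, and the latter to -0.014 at slide position 1 with 1 array per group. With 1 array left out they ran from -0.42 to -0.23 and from -0.19 to -0.086. Over all genes, 4985 were higher and 6800 lower with the slide block, 1210 and 1476 at position 4, and 6118 lower with no filter. With 1 array left out they ran from 1379 to 2171 and from 1566 to 2786. Several fold changes turned sign, and the cause was not tested. Psma1 was -0.043 with EpiSC-7 averaged, -0.080 at position 4 and -0.060 to 0.086 with 1 array left out. Psmd6 was -0.0050, -0.14 and -0.092 to 0.085 in the same settings. Psmc2 was -0.083 with the mean of probes, -0.016 at position 4 and -0.013 to 0.16 with 1 array left out. Psmd10 ran from -0.11 to 0.15 and Psmb5 from -0.42 to 0.88 with 1 array left out. Psmc6 was 0.054 with quantile normalization and 0.18 with the mean of probes, Psmf1 0.47 with the mean of probes and Pomp 0.035 with quantile normalization. No paired analysis was possible because the labels number no replicates, and the numbers used here only follow the order of deposit.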
